A study of Mus musculus with 12 samples.

Results

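Adarb1 encodes ADAR2, and the comparison described here sets primary mouse cortical neurons carrying a short hairpin against Adarb1 (shAdar2) beside neurons carrying the first control hairpin (shControl1). It took in 4 of the 10 samples of the series, or 6 of its 12 sequencing libraries. All cultures came from E16.5 cortices of C57BL/6J mice. They were infected the day after plating with lentivirus carrying an shRNA in the pGreenPuro backbone and were harvested 7 days after dissection, so the controls also carried virus and a hairpin. Each group had 2 replicates, which the labels do not describe as separate cultures or otherwise. Replicate 1 of shAdar2 was the sum of 3 libraries (1-1, 1-2 and 1-3) that the submitters describe as made from RNA of the same neurons. The remaining groups carried a second control hairpin (shControl2) or hairpins against Adar (shAdar1) or Zfr (shZfr), and they are used only for values set beside those of shAdar2. Pan-neuronal markers were present in every sample, with sums of 3377 to 5916 CPM in these 4. Every group rests on 1 hairpin, so loss of the target and other effects of that hairpin cannot be told apart. The labels do not say how many embryos were pooled.

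Expression was measured as estimated reads per gene in RNA depleted of ribosomal RNA, and editing as the reads with A (unedited) or G (edited) at listed sites. Of 23955 genes in the table, 14785 passed the filter on low counts and were tested. Of 46689 listed sites, 1615 had 10 or more reads in each of the 4 samples, and 348 of those, with 5 or more edited reads and as many unedited ones over the 4 samples, were tested one by one. Gene values are CPM, the TMM-scaled share of a library's counts that a gene takes. Fold changes are on the log2 scale with their standard errors, from edgeR's quasi-likelihood test, and "called" means a Benjamini-Hochberg adjusted p under 0.05 over all genes or all sites tested. CPM is not divided by transcript length, so levels are compared between samples and not between genes. In RNA from a whole culture, fewer cells of a type and less RNA per cell cannot be told apart.

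The libraries differed in depth and in make-up. Totals ran from 15818943 to 29671858 expected counts per library, with the lowest in shAdar2 replicate 2, while the summed replicate 1 reached 82653829. Reads at listed editing sites came to 0.415% to 1.1% of the gene counts in the 4 shAdar2 libraries, against 1.90% and 2.03% in shControl1 and 2.22% to 3.20% in the other groups. The precursor of ribosomal RNA, Rn45s, took 4.2% to 5.44% of counts in the shAdar2 libraries and 1.96% and 2.21% in shControl1. Library 1-2 stood apart from its partners: 3.85% and 4.50% of genes with at least 50 counts differed by 2-fold or more from libraries 1-1 and 1-3, which differed from each other at 2.35%. The 2 shAdar2 replicates differed at 8.27% to 9.28% of genes, the 2 shControl1 replicates at 1.31%. Xist, the RNA that coats an inactive X chromosome, was at 1249 and 1036 CPM in libraries 1-1 and 1-3 and at 450 CPM in library 1-2. The labels describe these 3 libraries as 1 RNA; results that rest on library 1-2 are given with and without it.

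ADARs deaminate adenosines within double-stranded stretches of RNA to inosine, which is read as G after sequencing. ADAR2 is the enzyme known for recoding sites in transcripts of neuronal receptors and channels, while ADAR1 edits many sites in repeats and keeps self-made double-stranded RNA from being sensed as viral. When the sensors MDA5 or RIG-I meet unedited or viral double-stranded RNA they drive type I interferon, whose receptor signals through STAT2 and IRF9 to promoters that carry an interferon-stimulated response element.

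Adarb1 was at 122 and 118 CPM in shControl1 and at 48.4 and 52.0 CPM in shAdar2. The groups did not overlap, 41.7% of the control level remained, and the log2 change was -1.26 ± 0.12 (edgeR adjusted p = 7.1e-05). The 3 libraries of replicate 1 gave 47.7, 51.5 and 50.6 CPM, so library 1-2 matched its partners for the targeted gene. Adar, which encodes ADAR1, was at 153 and 192 CPM in shControl1 and 207 and 188 CPM in shAdar2. It had no call against shControl1 (log2 change 0.20 ± 0.13, edgeR adjusted p = 0.23). Against shControl2 it was called higher (log2 change 0.62 ± 0.13, edgeR adjusted p = 0.0025). Adarb2, which encodes ADAR3, a family member without known editing activity, was at 65.1 and 50.5 CPM in shControl1 and 117 and 69.2 CPM in shAdar2 (edgeR adjusted p = 0.049). That call rested on the library chosen: libraries 1-1 and 1-3 held 155 and 146 CPM, library 1-2 held 54.5 CPM, and with library 1-2 alone as replicate 1 the adjusted p was 0.79. The log2 difference of Adarb2 from shControl2 was 0.15, with no call. Zfr, the zinc finger protein targeted elsewhere in the series, fell from 290 and 268 CPM to 179 and 197 CPM (log2 change -0.57 ± 0.11, edgeR adjusted p = 0.0029). In the shZfr group Adarb1 itself stood at 49.2 and 45.5 CPM, close to its level in shAdar2.

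Editing was lower at 73 of the 348 tested sites and higher at 4 of them (21% and 1.15%). Over all tested sites, called or not, both shAdar2 samples lay below both shControl1 samples at 48% and above both at 9.77%. The 73 sites averaged 33.2% and 33.9% edited in the shControl1 replicates and 7.40% and 7.5% in the shAdar2 replicates; these sites were picked by the same difference, so their averages describe it and do not test it. Libraries 1-1, 1-2 and 1-3 averaged 6.68%, 8.10% and 7.24% over them, so library 1-2 did not stand apart at these sites. Against shControl2 in place of shControl1, 27 sites were called lower and 10 higher. The change ran from 2.30 to 79.9 percentage points downward, with a median of 23, the groups did not overlap at 72 of the 73 sites, and at 23 of the 73 neither shAdar2 sample held an edited read. Over the same sites the shAdar1 samples averaged 24.1% and 20.3%, the shControl2 samples 22.5% and 21.7%, and the shZfr samples 8.02% and 8.03%. The median tested site had 66 reads in shAdar2 replicate 1 and 14 in replicate 2, so a single site in replicate 2 carries a wide interval.

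**Figure D1:**
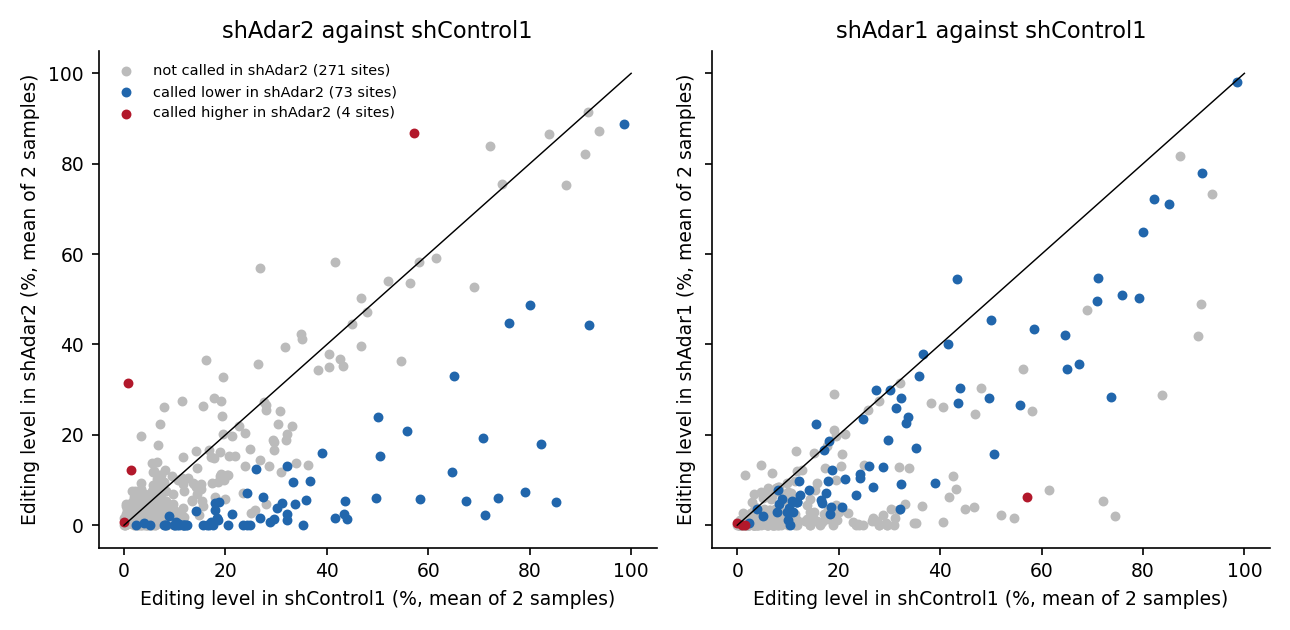
Editing level at the 348 tested sites, as the mean of 2 samples in percent, in shAdar2 (left) and shAdar1 (right) against shControl1, with 1 point per site and the line of equal levels. The 73 sites called lower in shAdar2 (blue) lie below the line on the left, with changes from -79.9 to -2.30 percentage points. They averaged 7.40% and 7.5% in shAdar2 and 24.1% and 20.3% in shAdar1. In shControl2, which is not drawn, they averaged 22.5% and 21.7%.

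The deepest losses were near complete. The sites are named by their mm9 position, and no annotation of that build was used, so no gene is given. At chrX:71471989 the edited share was 87.0% of 123 reads and 83.2% of 161 reads in shControl1, and 3.66% of 82 reads and 6.67% of 15 reads in shAdar2 (exact 95% binomial interval in replicate 2, 0.169% to 31.9%; edgeR adjusted p = 8.9e-24). A nearby site, chrX:71472201, went from 75.0% and 67.3% to 1.36% and 3.13%. At chr10:48992582 the share was 79.3% and 78.9% in shControl1 and 6.31% and 8.33% in shAdar2, on 111 and 12 reads in the latter. All 3 sites kept most of their editing in shAdar1, at 74.9% and 67.2%, 59.6% and 50.0%, and 53.5% and 47.2%. At chr12:25739515 the shares were 66.7% and 80.8% in shControl1 against 12.0% and 0% in shAdar2, where 0 of 14 reads allows up to 21.4%. This site was at 19.0% and 42.4% in shControl2, and against that control it was not called (edgeR adjusted p = 0.11).

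Neighbouring sites differed in how far they moved, and in a few places in direction. The 73 sites fell into 42 groups, in which each listed site, tested or not, lay within 10 kb of the next one. Of these, 33 held more than 1 tested site, and in 16 of the 33 every tested site was lower in mean level. A call in both directions was found in 2 groups. In 30 groups some tested sites had no call, which at this depth does not show that they did not move. On chromosome 11, chr11:75114079 fell from 80.6% and 83.7% to 17.9% and 18.2%, while the next base, chr11:75114080, went from 72.4% and 87.8% to 57.6% and 40%. The nearby chr11:75114086 went the other way, from 46.2% and 68.3% to 87.7% and 85.7% (edgeR adjusted p = 0.0011). That last site was at 1.47% and 10.9% in shAdar1 and 35% and 47.7% in shControl2, where the first was at 78.9% and 65.3% and at 72.0% and 60.5%. The difference between the 2 hairpins at single sites was not tested here. At chr11:75114517 in the same stretch the levels were 91.3% and 96.0% in shControl1 and 88.9% and 85.7% in shAdar2, with no call.

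A second stretch on chromosome 3 held the same mixture. At chr3:80510571 the share fell from 36.7% and 50.5% to 4.05% and 6.67%, whereas the nearby chr3:80510774 was at 36.6% and 39.7% in shControl1 and 40.9% and 27.8% in shAdar2 with no call. The nearly fully edited chr3:80510834 was at 98.0% and 99.0% in shControl1 and at 83.3% and 94.3% in shAdar2, on 378 and 53 reads. Its 3 libraries of replicate 1 gave 79.9%, 86.2% and 83.6%, and shAdar1 stood at 98.8% and 97.4%. On chromosome 12, chr12:25745158 was edited at 96.6% and 86.8% in shControl1 and at 41.5% and 47.1% in shAdar2. Its neighbours chr12:25745148 and chr12:25745161 dropped to 5.97% and 5.88%, and to 2.90% and 0%, from 37.7% and 61.8% and from 48.4% and 39.4%.

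Some highly edited sites without a call were low in the other knockdown. Of 13 uncalled sites with a mean of 50% or more in shControl1, 8 were below 50% of that level in shAdar1 and 0 in shAdar2, which describes sites selected for having no call in shAdar2. The 271 uncalled sites averaged 13.8% and 13.8% in shControl1 and 11.3% and 11.7% in shAdar2, against 5.20% and 4.47% in shAdar1. At chr11:116442451 the level was 70.9% and 78.0% in shControl1, 66.5% and 84.6% in shAdar2, and 4.00% and 0% in shAdar1. At chr5:125936975 it was 73.3% and 71.1%, 78.3% and 89.5%, and 7.06% and 3.74%. At chr2:4016835 it was 83.0% and 84.6%, 88.6% and 84.6%, and 30.2% and 27.3%. Other uncalled sites stayed high in both knockdowns: chr10:48962267 was at 86.4% and 88.1% in shControl1, 78.0% and 72.7% in shAdar2, and 81.1% and 82.4% in shAdar1. Between these, chr11:36577453 was at 89.3% and 93.6% in shControl1, 90.2% and 92.9% in shAdar2, and 40% and 58.1% in shAdar1. The shAdar1 and shAdar2 values share the same shControl1 samples.

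The 4 sites called higher rested on few reads or small shares, apart from chr11:75114086. At chr4:33106424 the level went from 2.04% and 0.870% to 7.82% and 16.7%. At chrX:53840821 it went from 0% and 1.69% to 4.41% and 58.3%, the last on 12 reads. At chr3:80510827 only shAdar2 replicate 1 held edited reads, at 1.45% of 346.

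Grouping the tested sites by their level in shControl2, which the test did not use, gave the share called lower at each level of editing. It was 9.50% of 179 sites under 5%, 25.5% of 106 sites from 5% to 20%, 45.5% of 44 sites from 20% to 50%, and 47.4% of 19 sites above 50%. The median levels in shControl1 and shAdar2 were 4.53% and 1.37%, 17.8% and 9.52%, 41.6% and 19.8%, and 80.1% and 54.0% in these 4 bins. A low level leaves less room for a fall, and read depth was not matched across bins beyond the minimum of 10 reads.

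Averaged over all 1615 sites, the editing level was 4.11% ± 0.064 (SD, n = 2) in shControl1 and 2.54% ± 0.124 (SD, n = 2) in shAdar2. The difference of -1.58 percentage points gave an exact two-sided permutation p = 0.333, the smallest that 2 samples against 2 can give. The control mattered here: shControl2 averaged 2.81% and 2.63% over these sites, and against it the difference was -0.17 points. Weighting by reads turned the direction, with 4.69% and 5.68% edited in shControl1 and 6.16% and 6.47% in shAdar2. A set of 3 deep sites between chr17:39980697 and 39985500 held 11.1% and 12.3% of all site reads in shControl1 but 23.5% and 25.3% in shAdar2, at edited shares of 17.7% and 23.1% and of 20.3% and 19.5%. Without them the pooled share was 3.07% and 3.25% in shControl1 and 1.83% and 2.03% in shAdar2.

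Gene expression changed widely, with 3426 genes called higher and 3430 called lower, or 23.2% of those tested in each direction and 46.4% in all. Of these, 1502 were at least 2-fold higher and 1222 at least 2-fold lower, and the median log2 change over all genes was 0.04. Against shControl2 instead, 2244 of the genes called higher and 2346 of those called lower were called in the same direction, and 390 were called in the opposite one. Counts for gene lists below are read against these shares. The lists are gene sets by known function, chosen with earlier results of these data in view.

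**Figure D2:**
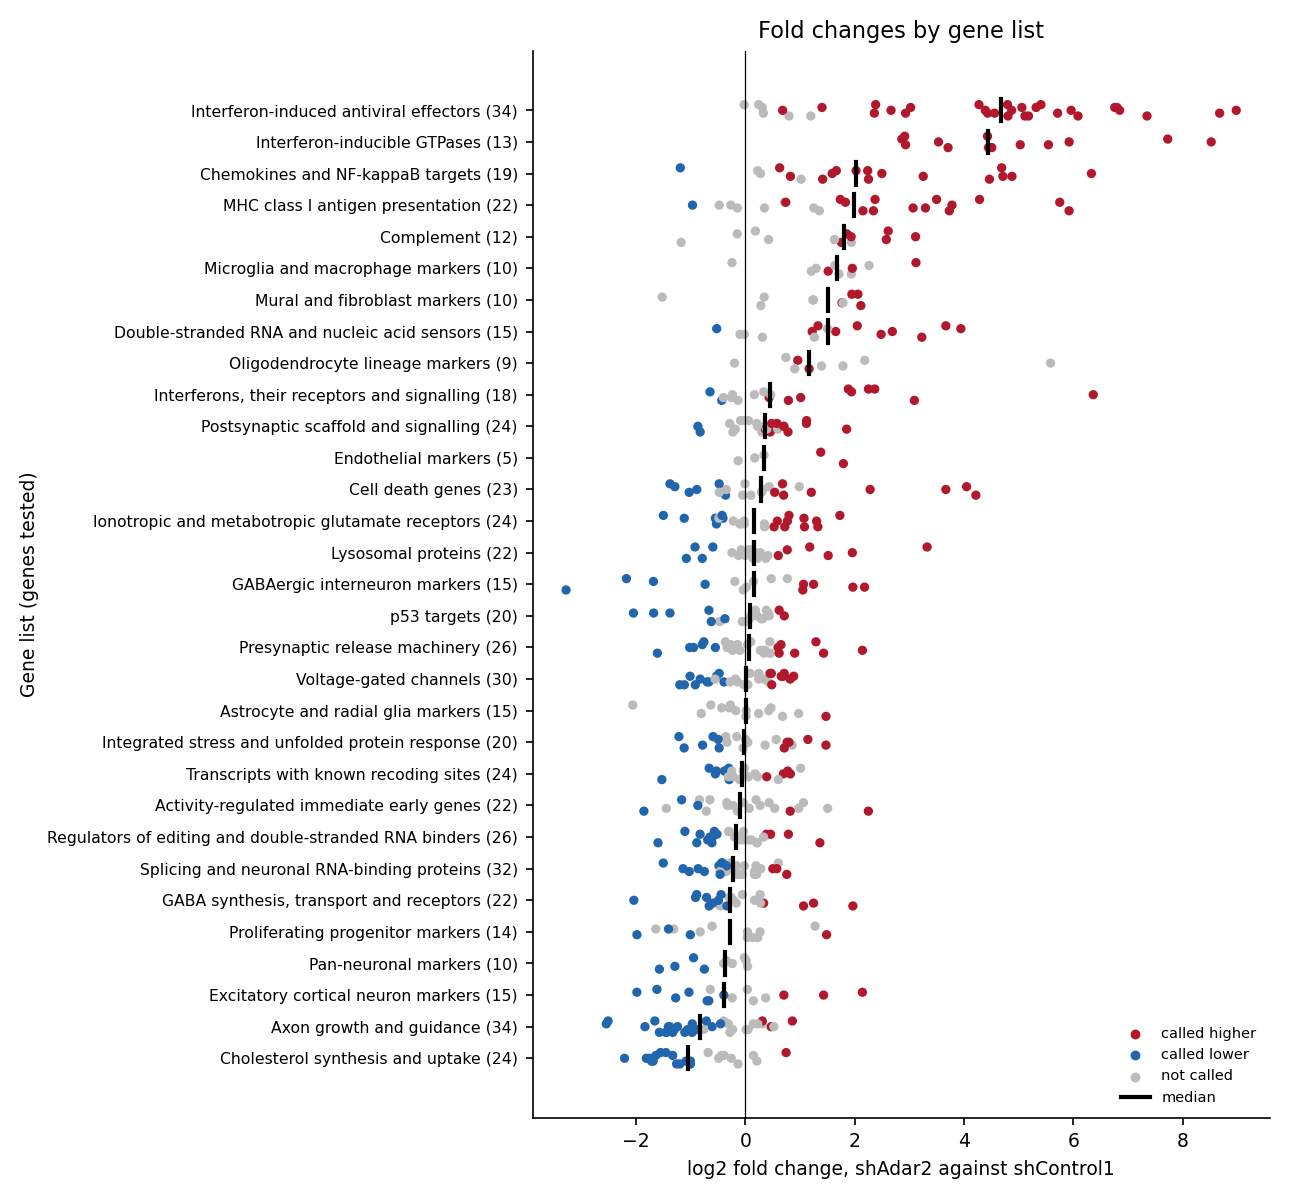
Log2 fold change of shAdar2 against shControl1 for each tested gene of 31 lists with 5 or more genes tested (1 point per gene, red called higher, blue called lower, grey not called, black bar median), with the number of genes tested in brackets. Antiviral effectors and interferon-inducible GTPases have medians of 4.68 and 4.45, and cholesterol and axon genes have medians of -1.05 and -0.83.

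Interferon genes themselves were nearly absent. Ifnb1, the interferon-beta gene, had 6 counts in library 1-1 and 0 in every other library of the 4 samples, Ifng had 3 counts in shAdar2 replicate 2 only, and Ifna4, Ifnl2 and Ifnl3 had 0 counts in all 4 samples. A count of 0 allows up to 3 counts per sample. The receptor subunits moved little: Ifnar1 was at 105 and 106 CPM in shControl1 and 77.5 and 78.8 CPM in shAdar2, and Ifnar2 was at 11.2 and 10.3 CPM and 13.9 and 15.1 CPM. Both were called, at log2 changes of -0.43 ± 0.08 and 0.43 ± 0.15, and so was Ifngr2, a subunit of the interferon-gamma receptor, at -0.65 ± 0.10. Against shControl2 the values for Ifnar1 and Ifngr2 were 0.15 and -0.05, without a call.

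The transcription factors downstream of the receptor rose. Irf9, the DNA-binding subunit of the type I complex, was at 7.84 and 6.80 CPM in shControl1 and 19.9 and 50.5 CPM in shAdar2 (log2 change 2.25 ± 0.36, edgeR adjusted p = 9.9e-04). Irf1, a related factor, was at 1.42 and 2.00 CPM against 8.48 and 9.27 CPM. Irf7, which amplifies interferon expression, was at 0.0384 and 0.129 CPM in shControl1 and 3.09 and 12.2 CPM in shAdar2. Stat2 rose less, from 22.6 and 24.7 CPM to 32.3 and 64.0 CPM, and was not called against shControl2 (edgeR adjusted p = 0.30). The kinases Jak1, Jak2 and Tyk2 had log2 changes of -0.13, -0.25 and 0.46 with no call. In all, 9 of the 18 tested genes of interferons, receptors and signalling were called higher and 2 lower, with a median log2 change of 0.45; the 9 became 5 without either shControl1 replicate.

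Of 15 tested sensor and adaptor genes, 9 were called higher and 1 lower (median log2 change 1.5). The number higher was 5 without either shControl1 replicate and 11 without shAdar2 replicate 1, and against shControl2 it was 6, with 0 lower. Ifih1, which encodes the long double-stranded RNA sensor MDA5, was at 0.961 and 0.805 CPM in shControl1 and 6.96 and 20.6 CPM in shAdar2 (log2 change 3.94 ± 0.49, edgeR adjusted p = 2.7e-04). Ddx58, which encodes RIG-I, was at 2.57 and 3.09 CPM against 13.0 and 40.7 CPM. Both were several times higher with no overlap between groups. Eif2ak2, the kinase PKR that halts translation on double-stranded RNA, rose from 9.18 and 7.37 CPM to 14.2 and 38.5 CPM, but not against shControl2, where its log2 difference was 0.34 (edgeR adjusted p = 0.52). Mavs, the mitochondrial adaptor of both sensors, had a log2 change of 0.31 ± 0.33 without a call. Tbk1, the kinase below it, fell from 43.1 and 45.8 CPM to 31.2 and 30.6 CPM, and it too was not called against shControl2.

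Antiviral effectors rose. Of the 34 tested, 28 were called higher and 0 lower, with a median log2 change of 4.68. Genes near 0 in every other group enter the test only through shAdar2: 19 of the 34 would have passed the filter without the shAdar2 samples, and 13 of those 19 were called higher, with a median of 2.38. Rsad2, which encodes viperin, was at 0.692 and 0.322 CPM in shControl1 and 15.6 and 53 CPM in shAdar2. Ifitm3, a membrane protein that blocks viral entry, was at 2.19 and 0.837 CPM against 9.89 and 53.6 CPM. Bst2, the tether that holds budding virus, was at 0.231 and 0.258 CPM against 2.32 and 15.3 CPM. The groups did not overlap at 31 of the 34 genes in the upward direction; over all tested genes this held for 35.7%. The 6 uncalled effectors included Ifit2, Cmpk2, Trim21, Tor3a and Shisa5.

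All 13 tested interferon-inducible GTPases were called higher, with a median log2 change of 4.45, and 8 of them would have passed the filter without shAdar2. These proteins coat the vacuoles of intracellular microbes. Gbp7 was at 0.922 and 0.966 CPM in shControl1 and 8.06 and 33.9 CPM in shAdar2, and Irgm1 at 4.50 and 2.38 CPM against 10.7 and 41.6 CPM. All 13 were called higher with library 1-2 alone as replicate 1, and all 13 against shControl2.

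The size of the increase differed between libraries. Replicate 2 exceeded the summed replicate 1 at 32 of 34 effectors and at all 13 GTPases, against 51.6% of all tested genes. Within replicate 1, library 1-2 was the lowest of the 3 libraries at the same 32 of 34 and 13 of 13 counts, against 34.1% of all tested genes. Oasl2 shows the spread: 37.5 and 39.3 CPM in libraries 1-1 and 1-3, 4.13 CPM in library 1-2, 107 CPM in replicate 2, and 0.269 and 0.0644 CPM in shControl1. Every shAdar2 library lay above both controls for this gene. With library 1-2 left out, 28 effectors and 13 GTPases were called higher, and with it alone 25 and 13.

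**Figure D3:**
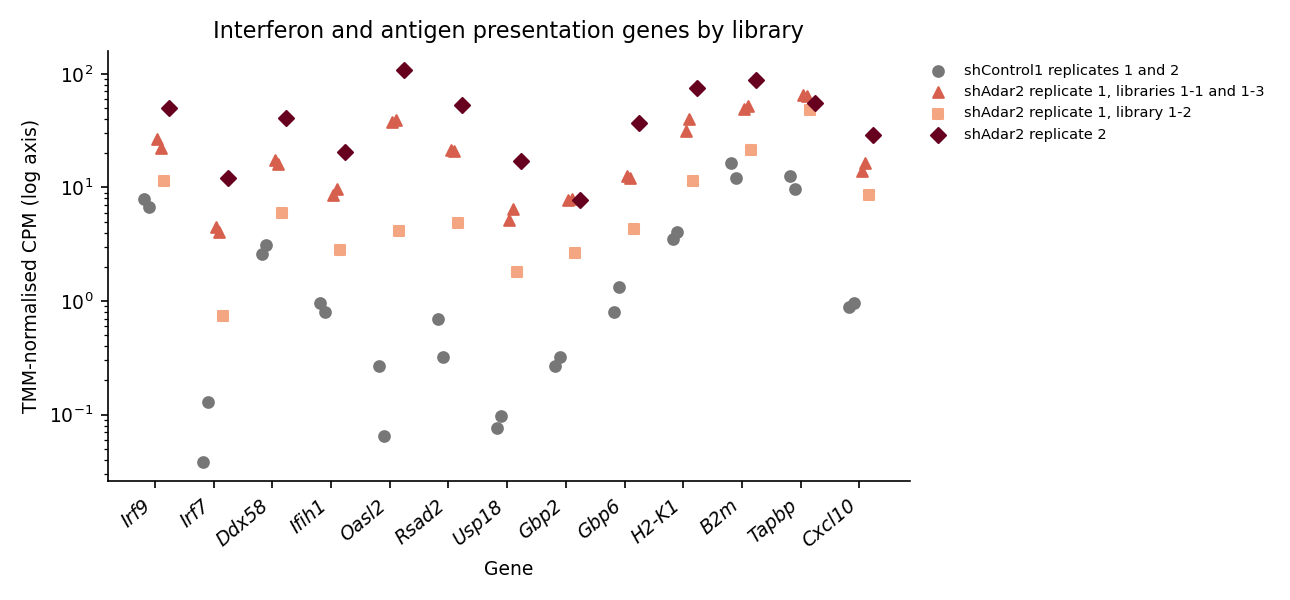
TMM-normalised CPM on a log axis of 13 genes of interferon signalling, sensing, antiviral defence, antigen presentation and chemokines, with 1 point per library (grey circles shControl1, triangles libraries 1-1 and 1-3, squares library 1-2, diamonds shAdar2 replicate 2). Library 1-2 lies between the controls and its partners, as for Ddx58 with 5.99 CPM against 17.3 and 16.2 CPM, while Tapbp differs little between the shAdar2 libraries.

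The response element for interferon is a direct repeat, and its core was searched in promoters as TTTC and TTTC parted by any 2 bases, or the reverse complement, GAAA and GAAA parted by any 2 bases, from 250 bases before to 50 bases after the start, on both strands (RefSeq, GRCm38.p6). Of the tested effectors and GTPases, called or not, 31 had a promoter in the table and 20 of them (64.5%) held a match; among those called higher it was 18 of 27 (66.7%). This compares with 3.57% of the 10973 tested genes with a promoter and 3.44% of all 32851 promoters. Among all genes called higher with a promoter, 107 of 2540 (4.21%) held a match, and among those called lower 3.02% did. The effectors and GTPases were listed as known interferon-induced genes, so their share describes the lists and does not test the increase. The 150 bases before the start are printed for 4 induced genes with a match, for the MHC class I light chain, and for Oasl2, which has none and had the largest increase among genes with a mean of 5 CPM or more in shAdar2. Capitals mark the matches, and each sequence runs 5′ to 3′ on the strand of the gene.
Isg15, chr4:156200819-156200968, minus strand: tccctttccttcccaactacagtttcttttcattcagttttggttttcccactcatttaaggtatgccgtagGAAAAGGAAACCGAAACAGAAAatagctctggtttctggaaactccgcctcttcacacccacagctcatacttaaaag
Ifit1, chr19:34640739-34640888, plus strand: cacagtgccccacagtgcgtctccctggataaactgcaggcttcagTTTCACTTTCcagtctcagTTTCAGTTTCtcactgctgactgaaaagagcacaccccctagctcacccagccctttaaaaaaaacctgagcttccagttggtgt
Rsad2, chr12:26456453-26456602, minus strand: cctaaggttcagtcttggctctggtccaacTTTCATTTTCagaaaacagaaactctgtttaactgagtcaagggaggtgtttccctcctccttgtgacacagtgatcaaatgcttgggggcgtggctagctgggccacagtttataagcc
Gbp2, chr3:142620513-142620662, plus strand: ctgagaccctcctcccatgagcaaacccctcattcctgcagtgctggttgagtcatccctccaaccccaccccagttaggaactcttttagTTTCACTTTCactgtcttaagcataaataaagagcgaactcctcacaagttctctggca
B2m, chr2:122147537-122147686, plus strand: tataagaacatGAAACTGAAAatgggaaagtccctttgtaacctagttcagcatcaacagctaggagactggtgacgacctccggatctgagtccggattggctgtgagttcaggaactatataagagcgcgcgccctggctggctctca
Oasl2, chr5:114896784-114896933, plus strand: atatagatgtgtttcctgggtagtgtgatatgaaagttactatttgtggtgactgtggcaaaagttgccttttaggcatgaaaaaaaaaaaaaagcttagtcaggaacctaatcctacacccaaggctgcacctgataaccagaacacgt
The 3 overlapping matches of Isg15 begin 78 bases before the start. The 2 matches of Ifit1 begin 104 and 85 bases before it. A match describes the letters in the window and no binding was measured.

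Antigen presentation genes rose with them. Of 22 tested genes of the MHC class I pathway, 14 were called higher and 1 lower (median log2 change 1.99). Without shAdar2, 17 of the 22 would have passed the filter, 10 of them called higher and 1 lower, with a median of 1.74. H2-K1, a class I heavy chain, was at 3.54 and 4.06 CPM in shControl1 and 27.3 and 74.5 CPM in shAdar2 (log2 change 3.73 ± 0.46, edgeR adjusted p = 2.5e-04), and B2m was at 16.53 and 12.2 CPM against 40.3 and 87.8 CPM. Tapbp, which loads peptide onto class I, was even across libraries, at 12.7 and 9.69 CPM in shControl1 and 58.0 and 55.6 CPM in shAdar2. Nlrc5, the transactivator of class I genes, was at 1.42 and 2.00 CPM against 12.0 and 22 CPM. Pdia3, a disulphide isomerase of the loading complex that serves other glycoproteins too, fell from 316 and 299 CPM to 157 and 158 CPM. Of the 12 class I genes called higher with a promoter in the table, 3 (25%) held the element.

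Chemokines and NF-kappaB targets followed, with 15 of 19 tested genes called higher and 1 lower, and a median log2 change of 2.03; 12 of the 19 would have passed the filter without shAdar2, 8 of them called higher. Cxcl10, a chemokine for T cells, was at 0.884 and 0.966 CPM in shControl1 and 12.8 and 28.7 CPM in shAdar2. Cx3cl1, the neuronal fractalkine, was already present at 47.0 and 31.2 CPM and stood at 231 and 136 CPM. Nfkbia and Tnfaip3, inhibitors that NF-kappaB induces, had log2 changes of 0.82 ± 0.19 and 1.59 ± 0.24. Rel, an NF-kappaB subunit, fell by 1.19 ± 0.34 on the log2 scale, and against shControl2 its log2 difference was 0.48 with no call. Of 12 complement genes tested, 6 were called higher. Only 5 of the 12 would have passed the filter without shAdar2, 2 of them called higher, with a median log2 change of 0.42, and without shControl1 replicate 2 a single complement gene was called higher. Among those called, C3 was at 0.615 and 0.322 CPM against 3.6 and 2.02 CPM and C4b at 2.73 and 1.84 CPM against 6.15 and 11.5 CPM. With library 1-2 alone, 3 complement genes were called.

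Markers of immune cells were close to the limit of counting. The 10 tested of 16 microglia and macrophage markers summed to 17.4 and 14.8 CPM in shControl1, 23.6 and 18.7 CPM in the shAdar2 replicates, and 28.5, 14.5 and 29.0 CPM in libraries 1-1, 1-2 and 1-3. Of the 10, 3 were called higher; 4 of the 10 would have passed the filter without shAdar2, 1 of them called higher. The 3 became 0 and 1 without shControl1 replicates 2 and 1, and 6 without shAdar2 replicate 2. The median log2 change was 1.68 over the 10 and 1.25 over the 4 that would have passed without shAdar2. Set against shControl2, 6 of the 10 were called higher and 1 lower. Without library 1-2, 5 were called higher than in shControl1, and with library 1-2 alone as replicate 1, 0 were. Aif1, which encodes IBA1, had 3 and 3 counts in shControl1, 64, 16 and 40 counts in the libraries of replicate 1, and 1 count in replicate 2. Csf1r, the receptor that microglia need to survive, had 3 and 5, then 39 and 0 counts, and Tmem119, specific to microglia in the brain, had 1 count in shControl1 and 0 in shAdar2. Of 10 lymphocyte and granulocyte markers, 6 had 0 counts in all 4 samples and only Cd4 was tested, at 0.115 and 0.0322 CPM against 0.777 and 0.545 CPM. The part of immune cells in these increases was not tested.

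Cholesterol synthesis genes fell. Of 24 tested, 15 were called lower and 1 higher, with a median log2 change of -1.05, and against shControl2 the counts were 18 and 1. Stard4, a sterol carrier, was at 57.0 and 51.5 CPM in shControl1 and 8.87 and 15.2 CPM in shAdar2 (log2 change -2.21 ± 0.31, edgeR adjusted p = 4.8e-04). Srebf2, the transcription factor that drives this pathway, was at 179 and 162 CPM against 192 and 203 CPM and was not called (log2 change 0.21 ± 0.16). Insig1, a partner of the sterol sensor, fell from 99.3 and 86.0 CPM to 26.9 and 51.7 CPM. Replicate 1 was the lower of the shAdar2 replicates at 19 of the 24 genes. A sterol element, searched as TCACNCCAC or GTGGNGTGA in the same promoter windows, was matched in 0 of the 8 genes called lower that had a promoter and in 1.24% of all promoters, which says nothing of the factor. In astrocytes the pathway is also active, and astrocyte markers summed to 2088 and 1517 CPM in shControl1, 1140 and 2051 CPM in the shAdar2 replicates, and 935, 1644 and 984 CPM in libraries 1-1, 1-2 and 1-3; their part in this result was not tested.

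Axon growth and guidance genes also fell, at 20 of 34 tested, with 3 called higher (1 without shAdar2 replicate 1 and 5 without shAdar2 replicate 2) and a median log2 change of -0.83. Map1b, a microtubule-binding protein of growing axons, was at 9456 and 10667 CPM in shControl1 and 1640 and 1888 CPM in shAdar2 (log2 change -2.51 ± 0.19, edgeR adjusted p = 2.3e-05). Its 3 libraries of replicate 1 held 1636, 1865 and 1573 CPM, so this fall was alike in all of them. Nefh, the heavy neurofilament, was at 11.7 and 13.9 CPM against 2.20 and 2.18 CPM, and Marcks, a membrane-actin linker, at 825 and 668 CPM against 259 and 285 CPM. The netrin receptor gene Dcc was at 221 and 441 CPM against 120 and 88.8 CPM, and Epha4, an ephrin receptor, at 256 and 262 CPM against 82.4 and 109 CPM. Efnb2, an ephrin ligand, rose from 114 and 132 CPM to 213 and 234 CPM, but its log2 difference from shControl2 was -0.08. Of 10 pan-neuronal markers, 4 were called lower and 0 higher, and against shControl2 5 were called lower and 3 higher. The 10 summed to 5916 and 5472 CPM in shControl1 and 3595 and 3377 CPM in shAdar2. Their median level moved less, from 391 and 360 CPM to 366 and 322 CPM. Map2 was at 2055 and 1791 CPM against 688 and 886 CPM, whereas Tubb3 had a log2 change of 0.02 with no call. Whether the axon genes fell beyond the neuronal share of RNA was not tested.

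**Figure D4:**
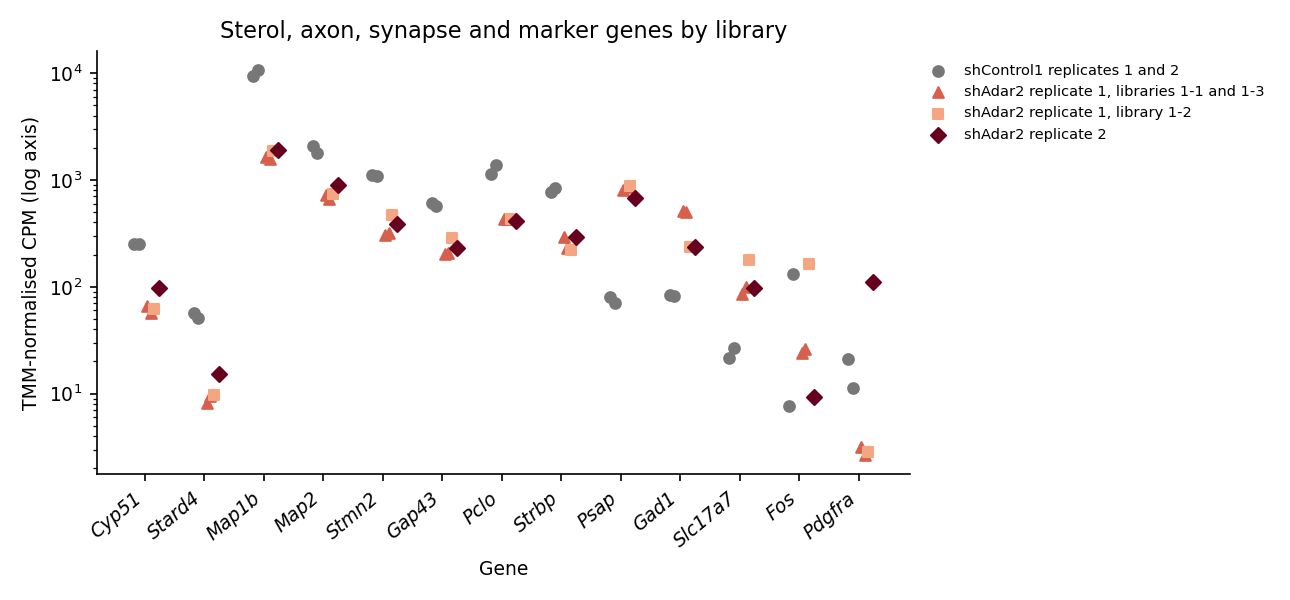
TMM-normalised CPM on a log axis of 13 genes of sterol synthesis, axons, synapses and cell types, with 1 point per library (grey circles shControl1, triangles libraries 1-1 and 1-3, squares library 1-2, diamonds shAdar2 replicate 2). Map1b lies near 1573 to 1888 CPM in all shAdar2 libraries against 9456 and 10667 CPM, while Pdgfra is at 112 CPM in replicate 2 alone.

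Receptor and channel genes moved in both directions. Among 24 transcripts with known recoding sites, 4 were called higher and 7 lower, with a median log2 change of -0.07; the 7 became 4 without shAdar2 replicate 1 and 3 without shControl1 replicate 2. Gria2, whose Q/R site is the best known ADAR2 target, was at 818 and 788 CPM in shControl1 and 770 and 727 CPM in shAdar2 (log2 change -0.10 ± 0.11, no call). The kainate receptor gene Grik2 was at 156 and 153 CPM against 152 and 153 CPM. The serotonin receptor gene Htr2c fell from 45.6 and 41.1 CPM to 18.7 and 10.9 CPM (log2 change -1.53 ± 0.22, edgeR adjusted p = 5.6e-04), and against shControl2 its difference was 0.30 with no call. Glutamate receptor genes were called higher at 10 of 24 and lower at 6, and the 6 became 3 without shAdar2 replicate 1 and 1 without shControl1 replicate 2. Grik5, a high-affinity kainate subunit, was at 106 and 113 CPM in shControl1 and 258 and 206 CPM in shAdar2, and it rose against both controls. Only 4 of the 10 genes called higher were called higher against shControl2 as well.

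Genes of inhibitory transmission moved both ways. Of 22 tested genes of GABA synthesis, transport and receptors (glycine receptors included), 9 were called lower, 4 higher and 9 not called, and the 9 lower ones were also called lower against shControl2. The 4 became 2 without shAdar2 replicate 1 or without shControl1 replicate 2. Glra2, a glycine receptor subunit of immature neurons, was at 57.8 and 47.5 CPM in shControl1 and 13.4 and 12.1 CPM in shAdar2 (log2 change -2.04 ± 0.12, edgeR adjusted p = 1.1e-05). The GABA-A subunit gene Gabrb2 was at 381 and 366 CPM against 202 and 200 CPM. Gad1, which makes GABA, went the other way, from 83.5 and 82.1 CPM to 412 and 234 CPM. Its libraries again differed, with 515 and 504 CPM in 1-1 and 1-3 and 234 CPM in 1-2. Of 15 interneuron markers, 5 were called higher and 4 lower, with a median log2 change of 0.15; the 5 became 3 without shAdar2 replicate 1 or without shControl1 replicate 2. Among the lower ones, the interneuron regulators Lhx6 and Maf fell from 23.3 and 19.0 CPM to 5.50 and 7.91 CPM and from 20 and 19.3 CPM to 3.64 and 5.29 CPM.

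At the synapse the postsynaptic genes leaned upward against shControl1 and the presynaptic ones were split. Of 24 postsynaptic genes, 10 were called higher and 2 lower. Against shControl2 the counts were 11 higher and 6 lower, and only 6 of the 10 were called higher against both controls. Dlg4, which encodes PSD-95, was at 215 and 213 CPM in shControl1 and 544 and 384 CPM in shAdar2. Camk2a, a kinase of mature excitatory synapses, was at 121 and 75.7 CPM against 430 and 277 CPM. Homer1, a scaffold, fell from 161 and 155 CPM to 82.5 and 90.7 CPM. Presynaptic genes were called higher at 7 of 26 and lower at 6, and higher at 13 without shAdar2 replicate 2. Pclo, a giant scaffold of the active zone, was at 1141 and 1392 CPM against 418 and 412 CPM. The vesicular glutamate transporter gene Slc17a7 was at 21.8 and 26.6 CPM against 116 and 97.5 CPM, and rose against both controls. Its relative Slc17a6 was at 16.3 and 13.9 CPM against 35.7 and 46.0 CPM, yet was called lower against shControl2 (log2 difference -1.14). Voltage-gated channel genes were called higher at 8 of 30 and lower at 10, with 9 of those 10 lower against both controls, among them the calcium channel subunit gene Cacna2d1 at 470 and 441 CPM against 174 and 222 CPM.

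RNA-binding proteins were more often lower. Of 26 regulators of editing and binders of double-stranded RNA, 10 were called lower and 4 higher, and all 14 were called in the same direction against shControl2. Strbp, a relative of Zfr that binds double-stranded RNA, was at 775 and 843 CPM in shControl1 and 243 and 292 CPM in shAdar2 (log2 change -1.60 ± 0.13, edgeR adjusted p = 2.9e-05). Zfr2, another relative, rose from 26.3 and 26.5 CPM to 82.5 and 52.9 CPM. Among 32 splicing and neuronal RNA-binding proteins, 11 were called lower and 3 higher. The neuronal Elavl2 was at 173 and 180 CPM against 58.9 and 65.9 CPM, and Hnrnpa1 at 541 and 470 CPM against 188 and 271 CPM. The 11 were all called lower against shControl2, and none of the 3 higher ones was called higher there.

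Stress and death genes showed no single direction. Of 23 cell death genes, 8 were called higher and 6 lower. Among the 19 that would have passed the filter without shAdar2, 4 were higher and 6 lower, and without shControl1 replicate 2 the number called higher was 2. Casp4 and Mlkl, which act in inflammatory and necroptotic death and are induced by interferon, rose from 0.154 and 0.0644 CPM to 1.09 and 3.16 CPM and from 0.0769 and 0.0322 CPM to 0.490 and 1.53 CPM. Casp9, the initiator of mitochondrial apoptosis, fell from 29.1 and 28.0 CPM to 12.0 and 11.2 CPM. Of 20 p53 targets, 2 were called higher and 6 lower, but against shControl2 the counts were 13 and 3, and without shAdar2 replicate 2 or shControl1 replicate 2 the number higher was 5 or 4. Ccng1, a p53 target that encodes cyclin G1, fell from 263 and 218 CPM to 50.7 and 66.1 CPM and fell against both controls. Of 20 genes of the integrated stress and unfolded protein responses, 5 were called higher (3 without shControl1 replicate 1) and 6 lower, with Ddit3 and Atf4 uncalled at log2 changes of -0.04 and -0.34.

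Activity-regulated genes differed between samples of the same group. Fos was at 7.65 and 131 CPM in the shControl1 replicates, at 23.9, 165 and 26.3 CPM in libraries 1-1, 1-2 and 1-3, and at 9.22 CPM in replicate 2. Library 1-2 was the highest of the 3 at 21 of the 22 genes of this list, against 39.5% of all tested genes. Only 2 were called higher and 3 lower, and these became 6 and 1 without shControl1 replicate 2. Set against shControl2, 11 were called higher and 2 lower, with a median log2 change of 1.53. Without library 1-2, 1 was called higher than in shControl1 and 5 lower. The median against shControl1 was -0.09 with all libraries, -0.64 without library 1-2 and 0.61 with library 1-2 alone as replicate 1. Arc, at 2.92 and 13.7 CPM in shControl1 and 67.4 and 11.3 CPM in shAdar2, was called (edgeR adjusted p = 0.038), and without library 1-2 it was not (0.089).

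Lysosomal genes were called higher at 6 of 22 and lower at 4. Psap, which encodes the precursor of saposins, had the smallest standard error among genes called higher by more than 3 on the log2 scale, at 79.5 and 69.8 CPM in shControl1 and 819 and 676 CPM in shAdar2 (log2 change 3.32 ± 0.13, edgeR adjusted p = 3.0e-06). Its log2 difference from shControl2 was 0.64, a smaller rise.

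Replicate 2 of shAdar2 carried more RNA of glial precursors than replicate 1. Pdgfra, a marker of oligodendrocyte precursors, was at 21.2 and 11.3 CPM in shControl1, 2.82 CPM in shAdar2 replicate 1 and 112 CPM in replicate 2. Sox10 was at 1.27 and 0.451 CPM, then 0.479 and 8.07 CPM, and Nes, a progenitor filament, at 99.8 and 89.6 CPM, then 93.7 and 367 CPM. None of the 3 was called. Oligodendrocyte lineage markers summed to 133 and 86.8 CPM in shControl1, 104 CPM in replicate 1 and 383 CPM in replicate 2. Mural and fibroblast markers summed to 30.9 and 25.7 CPM in shControl1 and to 37.0 and 141 CPM in the shAdar2 replicates. Pdgfra is on both lists and made up 112 of those 141 CPM. Only 4 of 10 mural genes were higher in replicate 2 than in replicate 1. Oligodendrocyte lineage sums were 481 and 483 CPM in shControl2, 155 and 436 CPM in shAdar1, and 337 and 290 CPM in shZfr. Replicate 2 of shAdar2 was also the one with the higher interferon-stimulated genes. Antiviral effectors summed to 246 and 655 CPM in the shAdar2 replicates, 125 and 136 CPM in shControl2, 130 and 132 CPM in shAdar1, and 106 and 98.9 CPM in shZfr. The part of glial and mural cells in the difference between the shAdar2 replicates was not tested. Excitatory neuron markers were called lower at 7 of 15 and higher at 3, with Neurod6 at 193 and 266 CPM in shControl1 and 60.5 and 55.1 CPM in shAdar2.

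Among genes whose groups did not overlap and whose higher group averaged 5 CPM or more, the largest increases by fold were Oasl2, Usp18, Ifi44, Isg15, Irf7, Ccl20, Rsad2, Parp14, H2-T23, Ifit3, Gbp9 and I830012O16Rik. Apart from Ccl20, a chemokine, and I830012O16Rik, these are on the effector, signalling, GTPase or MHC lists above. All 12 had few counts over the 2 shControl1 samples together, from 4 for Ifi44, Isg15 and Ccl20 to 28 for Rsad2. Their fold changes therefore rest on control levels near 0, and their order by fold is uncertain. The largest decreases were Rgs13, Spink10, Dkk2, Wif1, Klhl14, 1700020I14Rik, Lipo1, Ttn, Npy, Rab9b, Ap3s1 and Gm13139. The non-coding 1700020I14Rik had the smallest standard error of the 12, at 248 and 243 CPM in shControl1 and 17.9 and 22.6 CPM in shAdar2 (log2 change -3.61 ± 0.14, edgeR adjusted p = 3.0e-06). Rab9b, a small GTPase of endosomes, was at 131 and 103 CPM against 12.7 and 12.4 CPM, and Ap3s1, a subunit of a vesicle adaptor, at 136 and 100 CPM against 14.3 and 13.4 CPM. Both had as low a level in each of the 3 libraries of replicate 1 and fell by 3.32 and 3.38 on the log2 scale against shControl2. The secreted Wnt antagonist gene Wif1 was at 4.42 and 18.8 CPM in shControl1 and 0.99 and 0.545 CPM in shAdar2, while shControl2 averaged 0.603 CPM. Its log2 difference from shControl2 was 0.44, and that of Dkk2, another Wnt antagonist gene, was 1.13, neither called.

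Transcript length moved with the fold change. Tested genes were split by transcript length into 10 equal groups. In the group with the longest transcripts, from 6135 bases, the median log2 change was -0.18, with 19.7% of genes called higher and 36.3% lower. In the shortest group the median was 0.07 and the shares were 16.7% and 15.9%. Against shControl2 the medians ran from 0.86 in the shortest to -0.42 in the longest group. Map1b and Pclo are among the long transcripts, and the part of length in their fall was not tested.

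**Figure D5:**
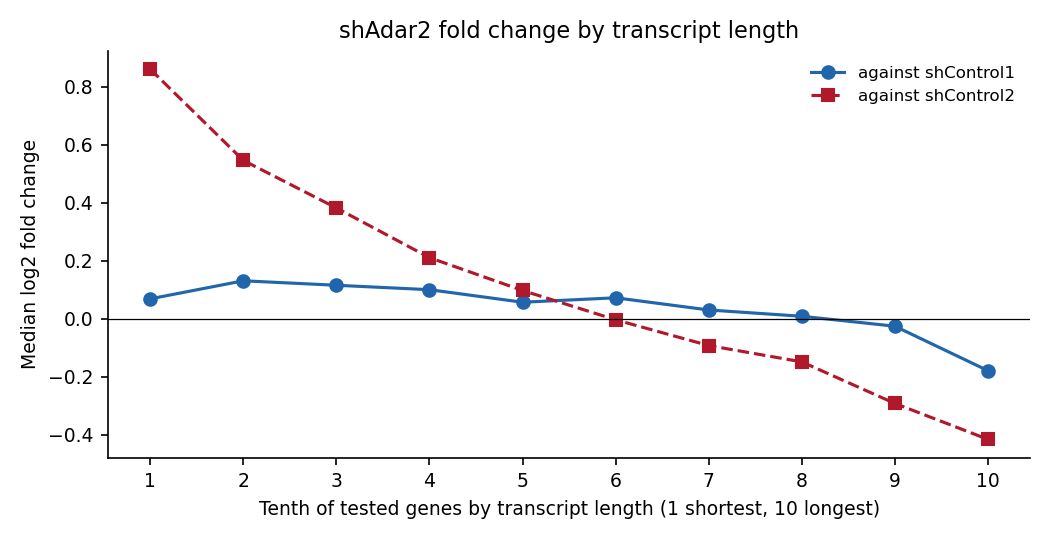
Median log2 fold change of shAdar2 in 10 equal groups of tested genes ordered by transcript length, against shControl1 (circles) and shControl2 (squares). Against shControl1 the medians lie between -0.18 and 0.13, and against shControl2 they fall from 0.86 to -0.42.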

How the data were processed

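Editing and expression were measured from the same rRNA-depleted libraries. Per the submitters' processing notes, the tools were RSEM 1.2.30, STAR 2.5.4b, DESeq2 1.20.0, Trim Galore 0.4.5 and SAMtools 1.4, with the mm9 build and without stated roles or settings. The authors deposited, per the file headers, expected counts and TPM per gene (TPM was not used) and, per site, read counts of A and G with the edited fraction. The sources used here do not state how sites were chosen. The fraction was recomputed from the counts.

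Expected counts were rounded, the 3 libraries of shAdar2 replicate 1 were summed, and all 10 samples entered an edgeR 4.0.16 quasi-likelihood fit (R 4.3.3) with TMM scaling and filterByExpr. Sites were tested with edgeR on A and G reads. Intervals are exact binomial at 95% and, like limits from 0 counts (3 counts), cover counting error only. The labels do not say whether replicates are separate cultures. Gene p-values rest on a spread estimated over all 10 samples, and site p-values on the 4 compared samples. That spread was uneven between groups. Genes 2-fold or more apart between replicates came to 0.0673% in shZfr, 0.262% in shControl2, 1.31% in shControl1 and 3.14% in shAdar1. In shAdar2 they came to 8.27% to 9.28%, so gene p-values do not measure the spread of the 4 compared samples alone. Genes named are the ADAR family and Zfr, the 12 largest changes each way with a mean of 5 CPM or more and no overlap, and members of each list with the lowest p or a defining role; other list members and sites were chosen after their values were seen. The comparison, members and lists were chosen with earlier results of these data known. On simulated data with 200 of 14785 genes changed, 53.4% of 2-fold and 82% of 4-fold changes were recovered with 8.016% false calls. That simulation gave each gene the same spread in every group and changed far fewer genes than the 46.4% called here. Its rates may therefore not hold for this comparison. For sites, 12.5% of 4-fold and 44.2% of 10-fold changes in odds were recovered. Alternatives used other filters, scalings, DESeq2 1.42.0, read minimums, the other control, a replicate block, single technical libraries and samples left out; leaving out library 1-2 or Rn45s, and the 3 deepest sites, was chosen after seeing the data. Some list members are counted but not reported by name here.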

Additional observations from a re-analysis of the deposited data

How the results depend on the processing

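Gene counts moved by more than 1.5 times in 1 setting, a fit of only the 4 samples, with 1931 genes higher and 2086 lower. With 1 CPM required in 4 or more samples, which tests fewer genes, 7 effectors, 5 GTPases and 7 chemokine and NF-kappaB genes were called higher. Leaving out 1 sample gave 2297 to 3770 genes higher and 2700 to 3951 lower. Site counts depended on depth. Sites called lower numbered 43 with a replicate block, 27 against shControl2, 130, 17 and 10 at 5, 20 and 30 reads, 38 with 1 edited and 1 unedited read, and 47, 42 and 26 with libraries 1-1, 1-2 and 1-3 alone. Without 1 sample they ranged from 15, without shAdar2 replicate 1, to 68, with 21 and 24 without shControl1 replicates 1 and 2. Sites called higher numbered 2 with the block, 10 against shControl2, 1 at 20 and at 30 reads, 1 with 1 edited and 1 unedited read, 2 with library 1-3 alone, and 0 to 3 without 1 sample. At chr3:80510827 the difference was 0 without shAdar2 replicate 1 and 1.45 points without replicate 2. Against shControl2 the log2 change turned for Dkk2 (1.13), Efnb2 (-0.081), Htr2c (0.30), Ifnar1 (0.15), Rel (0.48), Wif1 (0.44) and Slc17a6 (-1.14, and -0.36 against both controls together). The mean level difference was -2.75 points at 5 reads, -1.08 at 20 reads, -9.97 over sites at 5% or more in shControl1, -0.17 against shControl2, 1.13 as a pooled share and -1.23 pooled without the 3 deepest sites. The cause of these shifts was not tested. Replicate numbers are not known to pair samples: deviations of shControl1 and shAdar2 correlated at -0.0967, and with the replicate block 3383 genes were higher and 3444 lower. The median depth of 14 reads at tested sites in shAdar2 replicate 2 limits single sites.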
